A study of Danio rerio with 6 samples.

Results

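A set of 49 transcripts was low in adult females and at a similar level in adult males and juveniles of 28 dpf (days post fertilisation). The set was taken from a table of 13927 assembled transcripts, of which 9528 had a mean of at least 100 normalised counts over the 6 fish. Members were those 49 of the 9528 (0.514%) in which the mean of the males was at least 4 times the mean of the females and the means of juveniles and males were within 1.5-fold of each other. The members were thus chosen by the measured means of males, females and juveniles, so the low level in females and the closeness of males and juveniles are a description here and no finding.

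RNA from the whole bodies of 2 adult males, 2 adult females and 2 juveniles of *Danio rerio* was sequenced, with 1 library per fish. The fish were untreated animals of a breeder, killed with Tricaine before they were obtained, and the labels give neither a strain nor the age of the adults. The study compared them to find genes that mark sex early. It assumed from gene expression that both juveniles were male, and the labels give no sex for the juveniles. The juveniles bear the numbers 2 and 3 of their columns here, since the labels number them otherwise.

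In adult female zebrafish the ovary fills much of the body cavity, and its oocytes store maternal RNA for the embryo. Libraries are read to a limited depth, so RNA of a large ovary takes reads from RNA of muscle, liver, blood, skin and other body tissues. A transcript of those tissues can therefore take a smaller share of a female library without any change in the tissue itself. In such whole-body libraries, fewer cells of a type and less RNA per cell cannot be told apart. A male body also holds testis, while a juvenile gonad is small.

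Between 13980849 and 18635087 reads per fish were recovered from the values. These cover the transcripts of the table only, and the depth of the whole libraries is unknown. The table was selected by the authors on an adjusted p under 0.05 in a comparison that follows females against juveniles, so transcripts at equal levels in those groups are outside it. No gene names stand beside the identifiers, and 0 of these were found in the tables of gene names. Members are therefore given by their rank in the set, with the identifier for 2 of them, and no function is given to any of them. Tissue markers could not be checked in the set for the same reason.

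Levels of the 49 transcripts were moderate. The mean of the males ranged from 116 to 6287 normalised counts with a median of 295, that of the juveniles from 127 to 5057 with a median of 302, and that of the females from 8.42 to 647 with a median of 47.6. A male mean of at least 1000 was found in 11 of the 49, and 23 had a mean over the 6 fish under 200. Summed over the set, the males had 26348 and 45973 normalised counts, the juveniles 36598 and 35014, and the females 6587 and 4835. As a share of the table this was 0.212% and 0.362% in the males, 0.201% and 0.203% in the juveniles, and 0.0308% and 0.0215% in the females.

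The ratio of the male to the female mean had a median of 5.93 and ranged from 4.07 to 60.5. It was under 5 in 16 members and at least 10 in 11. Over all transcripts with a mean of at least 100 the median ratio was 0.69, and 1.95% of them reached 4, the value set by the rule. Juveniles were above males in 26 members and below them in 23, with a median ratio of juveniles to males of 1.04. Of the 9528, 186 had a male mean of at least 4 times the female mean, and the 49 members stood between 83 with juveniles more than 1.5 times above males and 54 with males more than 1.5 times above juveniles.

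**Figure D1:**
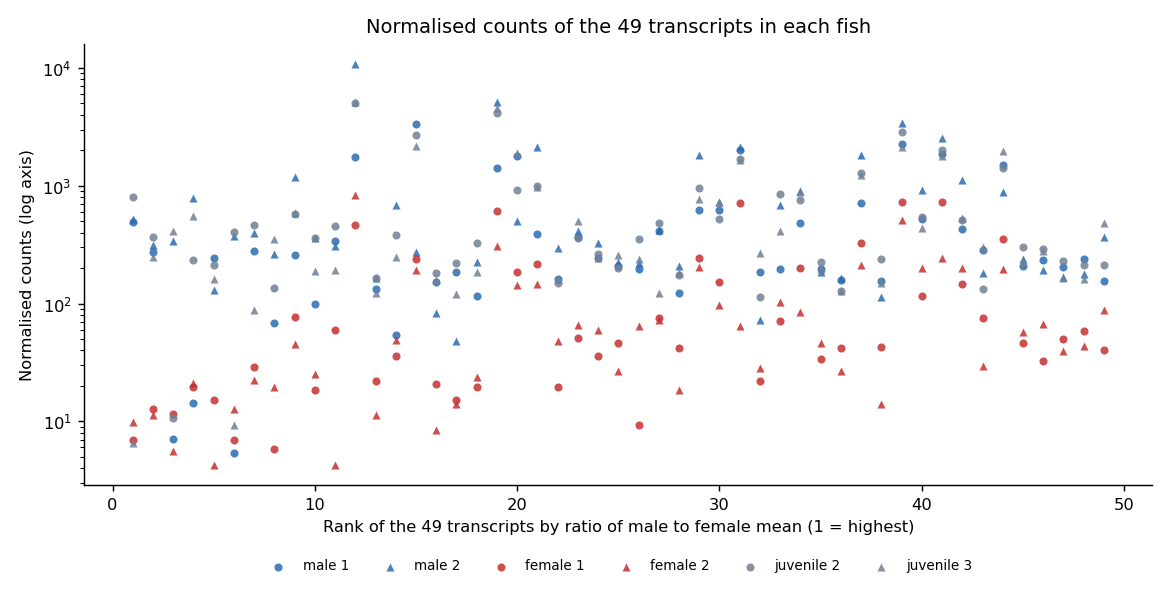
Normalised counts (log axis) of the 49 transcripts in each of the 6 fish, ordered on the x axis by the ratio of the male to the female mean from 60.5 at rank 1 to 4.07 at rank 49, with 1 point per fish. The females are the lowest points in 45 members, and in 4 of the first 6 ranks a male or a juvenile lies at the level of the females.

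The member with the highest ratio, transcript MSTRG.35786.1, had 490 normalised counts in male 1 and 527 in male 2. Female 1 had 6.97 and female 2 had 9.87, from 6 and 7 reads. The juveniles stood apart from each other, at 807 for juvenile 2 and 6.48 for juvenile 3. The transcript was thus high in both males and 1 juvenile and at the female level in the other juvenile. The juvenile mean of 407 ± 566 (SD, n = 2) met the rule although neither juvenile was near it.

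A similar split between fish of 1 group was seen in 3 other members. The member at rank 3 had 7.12 normalised counts in male 1 and 342 in male 2, 10.6 in juvenile 2 and 416 in juvenile 3, and 11.6 and 5.64 in the females. It was high in 1 male and 1 juvenile. The member at rank 6 had 5.34 in male 1 and 372 in male 2, 405 in juvenile 2 and 9.25 in juvenile 3, and 6.97 and 12.7 in the females. Here the other juvenile was the high one. The member at rank 4 had 14.2 in male 1, 781 in male 2, 235 and 556 in juveniles 2 and 3, and 19.7 and 21.1 in the females. In these 4 members each female was low, and so was at least 1 fish of another group. Their low level in females rests on 2 fish, and whether sex or the single animal sets it cannot be told apart with this number.

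In 45 of the 49 members both males and both juveniles were above both females. This pattern was found in 28.9% of all transcripts with a mean of at least 100, and in 98% of the 1075 transcripts that were close in juveniles and males and higher in males than in females. Every male and juvenile was at least 2 times above every female in 38 members, against 3.39% of all transcripts with a mean of at least 100 and 12.5% of the 1075. The gap was at least 4 times in 7 members, against 0.43% and 0.651%. The rule used these contrasts, so nothing is read from the counts.

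The 7 members with the widest gap between the fish were at ranks 2, 5, 13, 18, 23, 24 and 25. Rank 2 had 274 and 316 normalised counts in the males, 365 and 246 in the juveniles, and 12.8 and 11.3 in the females, from 11 and 8 reads. Its ratio of males to females was 24.6, with no fish of another group near the females. Rank 5 had 242 and 129 in the males, 213 and 162 in the juveniles, and 15.1 and 4.23 in the females, the last from 3 reads. At such counts the level of a single female is imprecise, since 3 reads is also the floor below which a level could give no read. Rank 23 had 368 and 410 in the males, 363 and 504 in the juveniles, and 51.1 and 66.2 in the females. Of the 49 members 10 had under 10 reads in at least 1 female, and 0 had a fish without reads.

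In 15 members the fish of each group were less than 2-fold apart in all 3 groups. Their ratios of males to females ran from 4.10 to 24.6 with a median of 4.77, against a median of 6.89 in the other 34. The median member of the whole set, rank 25, was among the 15. It had 208 and 226 normalised counts in the males, a juvenile mean of 229.6 ± 41.8 (SD, n = 2), and 46.4 and 26.8 in the females. Rank 39 had the highest male mean of the 15, with 2258 and 3436 in the males, 2878 and 2140 in the juveniles, and 726 and 517 in the females. Its ratio of males to females was 4.58. The female values rested on 625 and 367 reads in rank 39, but on 11 and 8 in rank 2 and on 19 and 8 in rank 13, which are also among the 15. The highest ratios came mostly from the remainder of the set. Of the 11 members with a ratio of at least 10, 9 had a pair of males or juveniles at least 2-fold apart. Such a pair was found in 15 of the 38 members with a ratio under 10, and in 24 of all 49. A mean of 2 fish is raised by 1 very high fish, so these counts are in part set by the choice.

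The member with the highest male mean, transcript MSTRG.32439.1 at rank 12, differed between the males. Male 1 had 1759 normalised counts and male 2 had 10814. The juveniles were alike, with 5014 and 5100, and the females had 462 and 833. All males and juveniles were above the females, but the ratio of 9.71 depended on the male. Leaving out male 1 gave 16.7, and leaving out male 2 gave 2.72, under the threshold of the rule.

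Male 2 was also well above male 1 in other strong members. Rank 19, second by male mean, had 1415 in male 1 and 5119 in male 2, 4166 and 4551 in the juveniles, and 607 and 309 in the females. Rank 21 had 392 and 2119 in the males, 996 and 986 in the juveniles, and 217 and 148 in the females. The juveniles lay between the males in both. Of the 11 members with a male mean of at least 1000, 5 had male 2 at least 2 times above male 1 and 2 had the reverse. Rank 15 was of the second kind, with 3342 in male 1 and 273 in male 2, 2686 and 2196 in the juveniles, and 238 and 194 in the females. Male 2 was near the females there.

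Over the whole set the males were at least 2-fold apart in 19 of 49 members (38.8%), in 15 with male 2 higher (4.71% of all transcripts with a mean of at least 100, 5.58% of the 1075) and in 4 with male 1 higher (7.15% and 2.14%). Male 2 was above male 1 by any margin in 35 members, against 50% and 61.4%. Males this far apart made up 11.6% of all transcripts with a mean of at least 100, and among the 1075 that were close in juveniles and males and higher in males it was 7.72%. The juveniles were at least 2-fold apart in 13 members (26.5%, against 7.71% and 3.16%) and the females in 15 (30.6%, against 8.89% and 7.35%). Fish of 1 group thus differed more often in the members than in either of those sets, both of which include the members. This difference was not tested. A rule on means of 2 fish takes in a transcript when 1 male is very high or 1 female very low, so these shares are in part set by the rule.

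**Figure D2:**
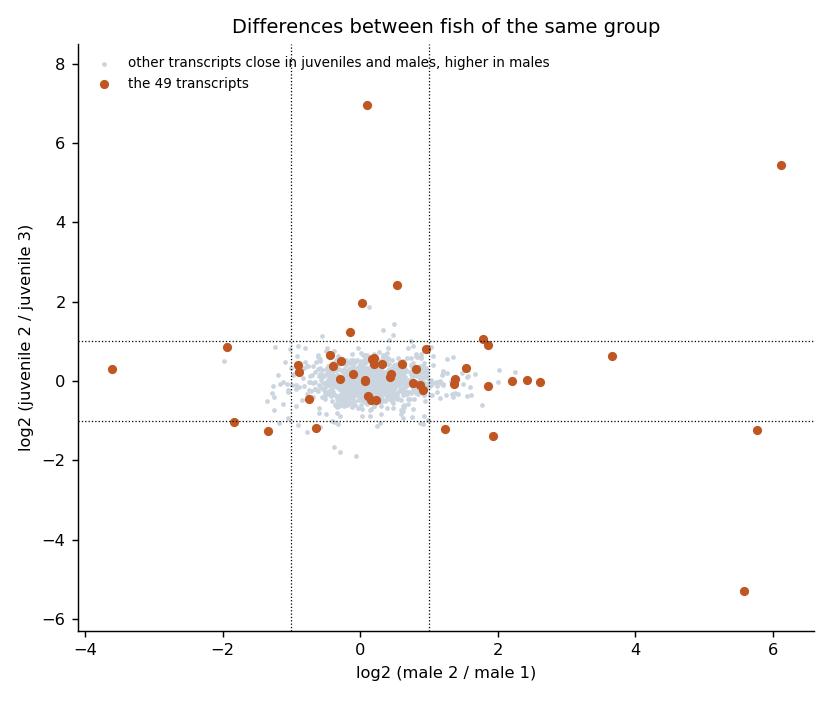
Difference between the males (x axis, log2 of male 2 over male 1) and between the juveniles (y axis, log2 of juvenile 2 over juvenile 3) for the 49 transcripts and for the other transcripts close in juveniles and males and higher in males than in females, with dotted lines at 2-fold. In 19 of the 49 the males are at least 2-fold apart, and in 15 of these male 2 is the higher.

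The females differed from each other most in 3 members. Rank 11 had 59.21 normalised counts in female 1 and 4.23 in female 2, rank 31 had 719 and 64.8, and rank 26 had 9.29 and 64.8. In the first of these the males had 342 and 310 and the juveniles 453 and 192. In rank 31 the males had 2025 and 2124 and the juveniles 1701 and 1658, so female 2 lay much further below them than female 1. Female 1 was above female 2 in 29 of the 49 members, against 62.5% of the 1075 transcripts and 45.9% of all with a mean of at least 100.

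Members came from 49 different loci of the assembly, and 46 of them were the first transcript of their locus. The 13927 transcripts of the table came from 13580 loci, so nothing is read from these counts. The locus number had a neighbouring number in the table at 33 of the 49 members. At 8 members, in 4 pairs, the locus numbers were consecutive. The loci of the table have numbers up to 38055, and the same shares over all of them were not computed. Neither count is therefore read as a trait of the members. What such numbers mean for position was not tested, as the table gives no coordinates. In 1 pair, ranks 9 and 19, the fish followed the same order in the adults. Rank 9 had 257 normalised counts in male 1 and 1190 in male 2, 581 and 584 in the juveniles, and 76.6 and 45.1 in the females, beside the values of rank 19 given above. In another pair, ranks 13 and 24, the fish of each group were less than 2-fold apart. Rank 13 had 133 and 166 in the males, 166 and 124 in the juveniles, and 22.1 and 11.3 in the females, and rank 24 had 242 and 328, 261 and 243, and 36.0 and 59.19. The same held for the pair of ranks 25 and 48. In the last pair, ranks 6 and 31, the first was high in 1 male and 1 juvenile and the second in all males and juveniles.

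The table held 5 other transcripts at 4 of the member loci. All 5 had a lower mean in females than in males, with ratios of males to females of 2.12, 2.42, 3.25, 4.80 and 10.9, and 2 of them thus reached 4. None of the 5 was close in juveniles and males, since the juvenile mean was 1.93 to 6.45 times the male mean. How the counting treated reads shared by transcripts of 1 locus is not known here, so the levels of the 5 and those of the 4 members are uncertain.

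Values near the limits of the rule were not set apart from the rest. The member nearest to the ratio of 4, at 4.07, had means of 260 in males and 64.01 in females, and the nearest transcript outside, at 3.99, had 278 and 69.7. At the limit on the mean, the last member had 100.1 normalised counts and the next transcript outside had 97.9, with a ratio of males to females of 19.7. At the limit on juveniles against males, the last member had a ratio of 1.497 and the next outside 1.514.

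Other transcripts of the table give the levels beside which the members can be set. Among transcripts with a mean of at least 100, 4368 (45.8%) had juvenile and male means within 1.5-fold. Of these, 3293 were not higher in males than in females and 1075 were. The 1075 included the 49 members and had a median ratio of males to females of 2.08. Between the 5th and the 95th percentile this ratio ran from 1.40 to 3.95. In 461 it was between 2 and 3, in 81 between 3 and 4 and in 49 at least 4. Few ratios lay close to 1, with 92 between 1 and 1.5. Transcripts at equal levels in juveniles and females are outside the table. With juveniles close to males, a ratio near 1 also means juveniles near females. The low number is thus in part set by that selection, and how far it shaped the other ratios was not tested. These transcripts were picked for a higher level in males, and over all 4368 the median ratio was 0.411. The median of the 1075 also depended on the scaling of the fish, with 3.11 for the median of ratios on the table, 3.08 for TMM, 3.62 for the total and 4.17 for the upper quartile. On the deposited scale the members were the upper tail of the 1075, without a gap.

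**Figure D3:**
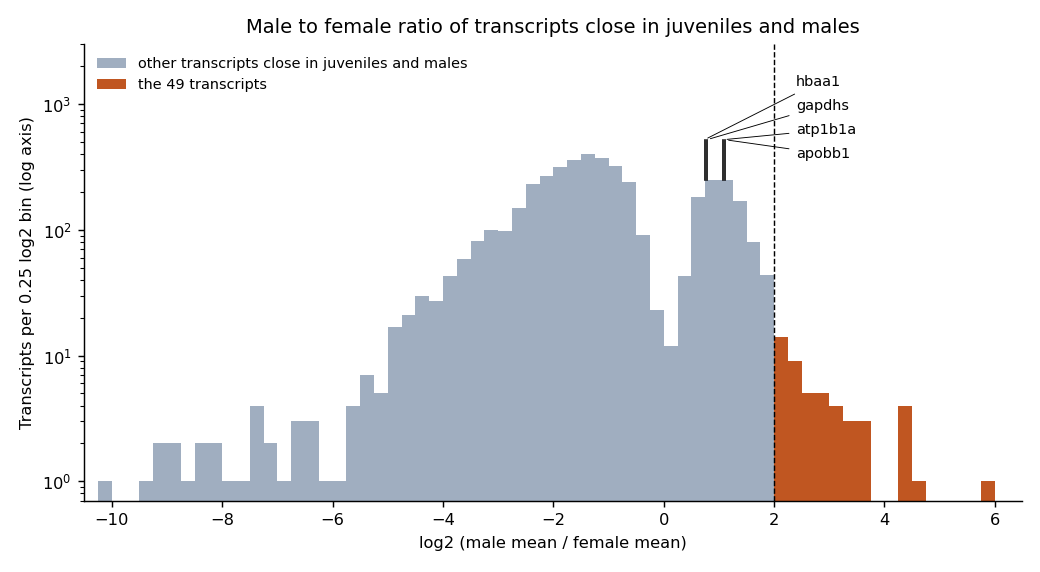
Number of transcripts (log axis) by log2 of the ratio of the male to the female mean, for the 4368 strong transcripts (mean of at least 100) with juvenile and male means within 1.5-fold, with the 49 members beyond the dashed line at a ratio of 4. Black ticks mark hbaa1, gapdhs, atp1b1a and apobb1, some of the male markers of the study, whose ratios of 1.67 to 2.16 lie in the right-hand peak.

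Hbaa1, gapdhs, atp1b1a and apobb1, which are 4 of the male markers that the study lists, had ratios of this size. The study picked them for a higher level in males, so ratios above 1 follow from that choice. They were identified from the values that the study prints for each fish, and all 4 are outside the set. Hbaa1 (MSTRG.4430.1), an alpha globin of red blood cells, had 21273 and 24547 normalised counts in the males, against 15467 and 11988 in the females. With 24586 and 21781, the juveniles were at the level of the males. This was a ratio of males to females of 1.67. Gapdhs (MSTRG.21286.1), a glycolytic enzyme that the study describes as testis-specific, had a ratio of 1.72. Atp1b1a (MSTRG.8760.1), a subunit of the sodium pump, had a ratio of 2.12 and apobb1 (MSTRG.25558.1), an apolipoprotein made by liver and gut, had 2.16. The ratio of apobb1 depended on the male, with 1.48 without male 1 and 2.84 without male 2. The juvenile means of the 4 genes were 0.98 to 1.28 times the male means. All 4 ratios were thus below the lowest ratio of the members, 4.07, which the rule itself kept at 4 or more. The other male markers of the study were not compared here, and for dmrt1 and fkbp5 it reports larger differences between the sexes.

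The oocyte genes of the study show the other side. Bmp15, an oocyte growth factor, had 5940 and 7429 normalised counts in the females, while the males had 31.1 and 7.19. Gdf9, its relative, had 3021 and 3705 in the females, against 24.0 and 4.0 in the males. Ccnb1, a cyclin stored in oocytes, had 53898 and 81366 in the females, against 860 and 649 in the males. All 3 were higher in female 2 than in female 1, and the summed level of the members was lower in female 2. The median over the members was not lower, with 46.4 in female 1 and 47.9 in female 2. Of the members, 29 were higher in female 1 and 20 in female 2. Whether the levels of the oocyte genes and of the members go together was not tested.

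Transcripts with a female mean of at least 4 times the male mean numbered 3199. They took 35.3% and 37.1% of the normalised counts of the table in the females. This share was 6.83% and 6.57% in the males, and 4.93% and 5.29% in the juveniles. All else in the table thus had a share in females that was 1.46 times smaller than in males. With a limit of 2 times, 5443 transcripts took a mean of 66.0% in females and 26.1% in males, and the remainder had a share 2.17 times smaller. With a limit of 10 times, 1566 transcripts took 18.1% and 0.874%, and the remainder was 1.21 times smaller. At each limit the transcripts were picked for a higher level in females. A smaller remainder in females was thus set by that choice, and only its size is a description. For the share of the remainder to be 4 times smaller, the transcripts of the first kind would have had to take 76.7% of the table in females. Scaled to the total of the table, the members had a lowest ratio of 7.14 and a median of 10.3. A share 4 times smaller is thus a smaller fall than that of any member on this scale. Shares are on another scale than the ratios of the members, which are of deposited normalised counts, and the total of these over the table was 1.75 times higher in females than in males. In normalised counts the remainder summed to 1.19 times the male level in females at the limit of 4 times, to 1.44 times at the limit of 10 and to 0.80 times at the limit of 2. The shares are of the table, not of the libraries, and a share of the latter was not analysed here. How much of the high level in females came from the ovary was not tested.

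**Figure D4:**
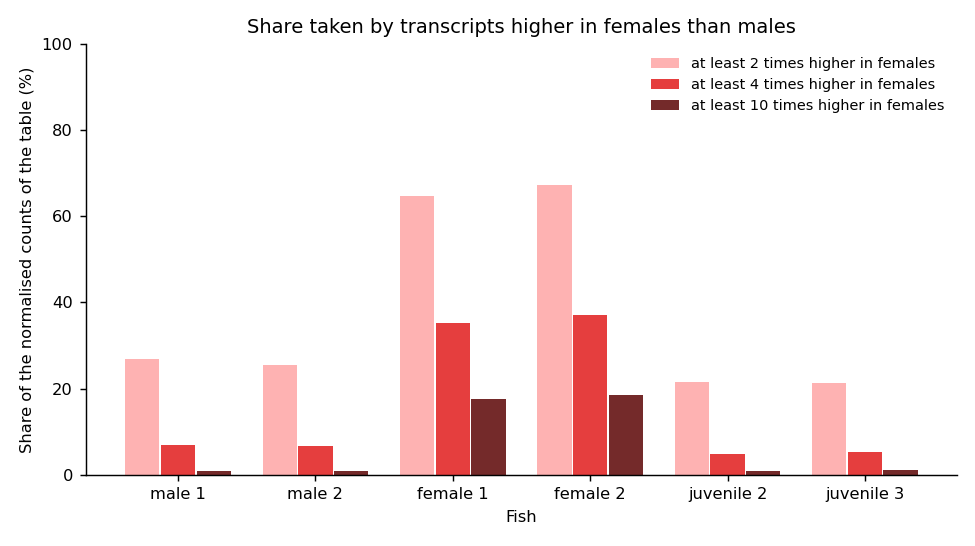
Share of the normalised counts of the table (%) in each fish that was taken by transcripts whose female mean was at least 2, 4 or 10 times the male mean. The females reach 35.3% and 37.1% at the limit of 4 times, and the males and juveniles stay between 4.93% and 6.83%.

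The ratios of the members were also computed on other scales, as a description of the values that chose them. Scaling to the total of the table without the 3199 transcripts raised males relative to females by 0.26 on the log2 scale, and the median ratio was 7.06. Scaled without the 5443, which lowered males by a log2 shift of -0.32, the median was 4.78, 33 members had a ratio of at least 4 and all 49 at least 2. The 1075 transcripts were picked for a higher level in males, so their median ratio above 1 was fixed by that choice. Over all 4368 transcripts close in juveniles and males it was 0.411. When the females were raised until the median ratio of the 1075 was 1, the members had a median of 2.86 and a range of 1.96 to 29.1. In 15 of them the ratio was then at least 4, in 47 at least 2, and in 38 both males and both juveniles were still above both females. Hbaa1, gapdhs, atp1b1a and apobb1, also picked for a higher level in males, then had ratios of 0.80 to 1.04. A scaling to transcripts picked in this way is no measure of dilution. What part dilution by the ovary had in the low level of the members was not tested.

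**Figure D5:**
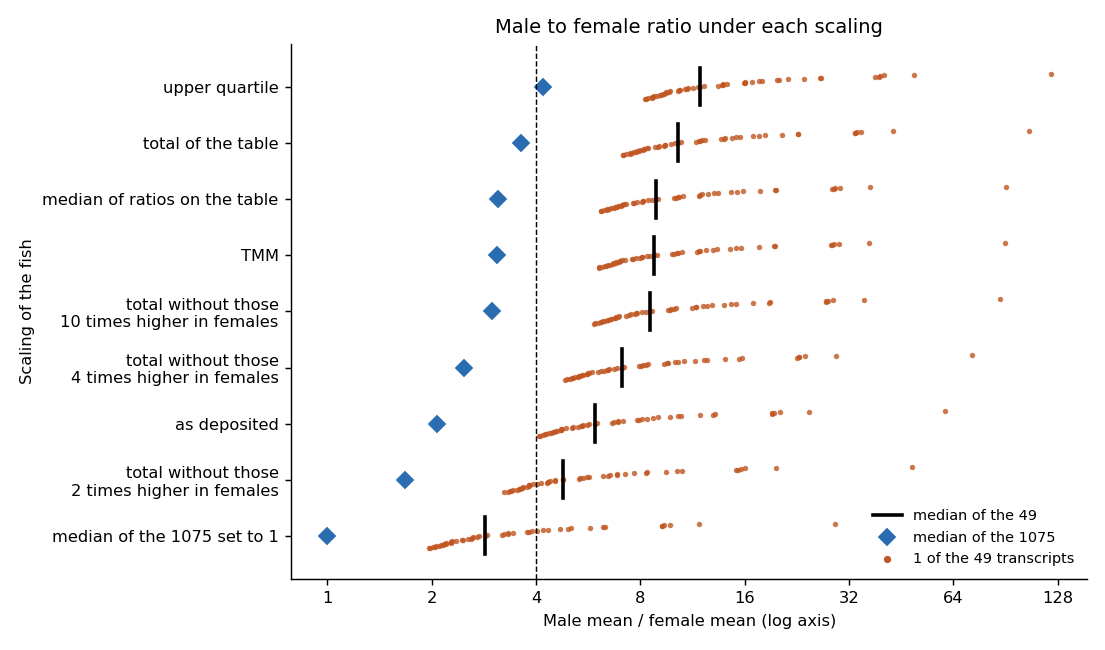
Ratio of the male to the female mean (log axis) of each of the 49 members under 9 scalings of the fish, with the median of the 49 as a black bar and the median of the 1075 transcripts close in juveniles and males and higher in males as a blue diamond. The median of the 49 ranges from 2.86 to 11.9, and the median of the 1075 moves with it, since 1 factor per fish shifts all transcripts alike.

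The scaling also set how many transcripts met the rule. Against the deposited values, scalings estimated again on the table raised males relative to females by 0.57 (TMM), 0.59 (median of ratios), 0.80 (total) and 1.01 (upper quartile) on the log2 scale. By the rule they gave 231, 229, 424 and 670 transcripts, of which 44, 41, 30 and 46 were among the 49. TMM and the median of ratios take most transcripts as unchanged between fish. The table was selected for a difference between females and juveniles, so this may not hold here. With the females raised as above, 14 met the rule and all 14 were members.

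The choice also depended on single fish. Without male 1, 85 transcripts met the rule, and 25 of them were among the 49. Without male 2 it was 54, with 26 shared. Male 1 was then at least 4 times above the females in 21 of the 85 chosen without it (24.7%, against 1.92% of all transcripts with a mean of at least 100), and male 2 in 21 of the 54 chosen without it (38.9%, against 2.85%). Without female 1, 108 met the rule, of which female 1 was at least 4 times below the males in 36 (33.3%, against 2.55%). Without female 2, 60 met it, of which female 2 was that far below in 36 (60%, against 3.95%). Without juvenile 2, 46 met the rule and juvenile 2 was within 1.5-fold of the males in 24 (52.2%, against 46.5%). Without juvenile 3, 40 met it and juvenile 3 was within that range in 24 (60%, against 43.2%). Each left-out fish was set against means of the other group that had also chosen the transcripts, so these shares are not independent of the choice.

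In a test over 13748 transcripts that reached 10 normalised counts in 2 or more fish, limma called 2761 (20.1%) higher in males than in females at an adjusted p under 0.05. The table had been selected on females against juveniles in the same fish. The adjusted p is therefore not exact, and shares of all transcripts here are of that table only. All 49 members passed the filter of 10 normalised counts, as they had to with the male and juvenile levels that the rule requires. Of them 44 were called higher in males by limma, 45 by edgeR (18.5% of all transcripts) and 48 by DESeq2 (20.5%), which describes the choice and supports nothing. The 5 not called by limma, at ranks 3, 4, 6, 14 and 15, were those with the males at least 10-fold apart. Rank 14 had 54.3 normalised counts in male 1 and 686 in male 2, 385 and 249 in the juveniles, and 36.0 and 49.3 in the females. Between juveniles and males, limma called 4789 of all transcripts (34.8%) and 0 of the 49, with 0 at an unadjusted p under 0.05 and 0 called by edgeR (33.2% of all) and by DESeq2 (39.5%). Some members were called when male 1, male 2 or juvenile 2 was left out, which leaves 1 fish in that group. The calls over all transcripts also depended on single fish. Those higher in males numbered 1795 without male 1, 1453 without male 2 and 1506 without female 2, and those between juveniles and males 2853 without male 1, 2388 without juvenile 2 and 1736 without juvenile 3. A missing call does not show equal levels, and here the rule itself kept the means close.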

How the data were processed

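Whole-body RNA of 6 zebrafish was sequenced, and 1 table of normalised values was analysed. Per the submitters' processing notes and the study's methods, reads were aligned to GRCz11 (HISAT2 2.1.0), transcripts were assembled (StringTie 1.3.4), and their reads were counted (featureCounts 1.6.3) and normalised (DESeq2 2.11.40.2). The deposited signal is thus a read count divided by 1 size factor per fish, and 100% of the values were whole reads within 0.01 of a read. Columns with the authors' fold changes, standard errors, test statistics, p-values, differences of means, selection marks and notes were not used, beyond the limit on the adjusted p.

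Adult columns were matched to the labels by number and juvenile columns by group. Ratios are of group means. Groups were compared with limma-trend 3.58.1 (R 4.3.3) on log2 (normalised count + 1), with all 6 fish as 3 groups, Benjamini-Hochberg adjustment at 0.05 and 3 residual degrees of freedom, after tests on simulated data. A spread from 2 fish per group is imprecise. EdgeR 4.0.16 and DESeq2 1.42.0 were run on the recovered reads. EdgeR called 2550 transcripts higher and 5474 lower in males than in females. Other scalings, thresholds, filters and pseudocounts, a replicate block and leaving out each fish were tried. Members, lists and comparisons were chosen with earlier results of these data known. Identifiers are printed for the members with the highest ratio and the highest male mean, and other members, named by rank, were picked after their values were seen. Lists of tissue genes could not be used without gene names. Software was Python 3.11.15 with numpy 2.4.6, pandas 2.3.3 and matplotlib 3.10.9. Read counts cover counting error only.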

Additional observations from a re-analysis of the deposited data

How the results depend on the processing

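The number of transcripts meeting the rule, 49 as reported, was 229 with the median of ratios on the table, 231 with TMM, 670 with the upper quartile and 424 with the total. With the total taken without transcripts at least 2, 4 or 10 times higher in females it was 29, 93 and 189, and with the median of the 1075 transcripts set to 1 it was 14. A mean of at least 50 or 200 gave 93 and 26, a ratio of at least 3 or 6 gave 130 and 23, and a narrower window for juveniles against males or one of 2-fold gave 28 and 87. Leaving out 1 fish gave 40 to 108. The scalings without the 2-fold and 10-fold transcripts and with the median set to 1 were chosen after seeing the data.

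The median ratio of males to females of the members, 5.93, was 8.86 (median of ratios), 8.78 (TMM), 11.9 (upper quartile), 10.3 (total), 8.51 (total without those 10 times higher in females) and 2.86 (median set to 1), and 4.73 to 7.84 without 1 fish. With that median set to 1 the ratios of gapdhs and hbaa1 turned to 0.828 and 0.803. The median ratio of juveniles to males was 0.730 with the total and 0.718 with the total without those 4 times higher in females. The median ratio of males to females over the transcripts close in juveniles and males, 0.411, was 0.616, 0.635, 0.855, 1.18 and 0.809 with the median of ratios, TMM, the upper quartile, the total and the total without those 4 times higher. It was 0.382 at a mean of at least 1000 and 0.405 to 0.441 without 1 fish. The share of the table taken by transcripts higher in females, 36.2%, was 66.0% and 18.1% with limits of 2 and 10 times and 34.1% to 38.7% without 1 fish.

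The 2761 transcripts called higher in males by limma became 4911, 4893 and 6175 with the median of ratios, TMM and the upper quartile. These were 53.5%, 53.2% and 65.9% of the calls between males and females, against 33.2% as deposited. All of these scalings were estimated on the selected table, where most transcripts may not be unchanged. Without 1 fish 1453 to 2480 were called higher, and 5495 (without female 2) to 7549 of 8325 in either direction. Adults alone with a replicate block gave 1511 called higher and 42 members. The labels do not say whether equal numbers pair the fish. A correlation of deviations of -0.04, from 1 difference per sex, cannot settle it. Calls between juveniles and males, 4789, were 1736 to 4891 without 1 fish, with 0 to 5 members among them. The number of members with males and juveniles above females, 45, was 38 (median set to 1) to 48 (upper quartile) under the other scalings. Without 1 fish it was 45 or 46, but leaving out a fish can only keep or raise this count. Causes of these changes were not tested. With 2 fish per group, sex, animal and tissue sampling cannot be told apart.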
